A study of Mus musculus with 8 samples.

Results

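The 8 genes described here are Ppara, Cpt1a, Cpt2, Acadm, Acadl, Acadvl, Hadha and Ehhadh, which encode a nuclear receptor and 7 enzymes of fatty acid oxidation. They were chosen by gene name, with no threshold on their values, and make up 8 of the 18217 mouse genes that could be named on the array. Each gene had 1 probe that passed the filter on dim probes, except Cpt1a, which had 2, and every gene was well above background on all 8 arrays. No member makes ketone bodies itself, so the enzymes of ketogenesis are given separately with the rest of the pathway.

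Total RNA of whole kidney from 8 mice aged 8 weeks was labelled with Cy3 and hybridised to Agilent mouse arrays, 1 array per mouse. The study asked how the kidney responds when Nrf2, a transcription factor that drives antioxidant genes, is freed from its repressor Keap1. NEKO mice carried the genotype Keap1-/-::Nrf2 Flox/Flox::K5-Cre, and 2 females and 2 males were measured. The 4 controls were Keap1 heterozygotes, 1 female without Cre (K1, Keap1+/-::Nrf2 Flox/Flox) and 3 mice, 1 female and 2 males, with Cre (K1Cre, Keap1+/-::Nrf2 Flox/Flox::K5-Cre). All 8 mice therefore carried the floxed Nrf2 allele, on a background mixed from 129Sv/J and C57BL/6J, and no wild-type mouse was measured. K5-Cre acts in squamous epithelium, so Keap1 was missing throughout the body of NEKO mice whereas Nrf2 was removed from squamous epithelium. NEKO kidneys are hydronephrotic at this age, so the whole organ was measured in a state of altered structure. Mice are named here by sex and by the number in their label.

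Long-chain fatty acids are activated to acyl-CoA, carried into mitochondria as carnitine esters, and shortened in repeated rounds of dehydrogenation, hydration, a second dehydrogenation and thiolysis. Very long and branched chains are first shortened in peroxisomes. The nuclear receptor PPAR-alpha, encoded by Ppara, switches on many of these genes when fatty acids are plentiful, and the proximal tubule of the kidney is known for its heavy use of fatty acids as fuel.

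The arrays fitted their genotype labels. Keap1 lay between 0.06 and 0.45 in NEKO mice and between 1.77 and 1.92 in controls, in log2 units above the 75th percentile of its array, the scale used throughout. It fell by 1.63 in NEKO mice (SE 0.10, adjusted p = 0.0046 with limma). Of 12 known Nrf2 targets 11 were measured, and their median difference was 1.05. Nqo1, a quinone reductase, was higher in every NEKO mouse by 2.62 (SE 0.43, adjusted p = 0.065), and Gclc, which makes the precursor of glutathione, differed by 0.95 (SE 0.37, adjusted p = 0.25). The share of probes that stood well clear of background ran from 61.7% to 65.7% over the 8 arrays. Both females and males were split evenly between the genotypes, but females lay on 1 slide and males on the other, so that sex and slide cannot be told apart.

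The summed level of proximal tubule markers covered nearly the same range in both groups, whereas that of intercalated cell markers did not overlap. A summed level is the log2 of the added unlogged signals, so the brightest markers weigh most in it. The summed level of 14 proximal tubule markers, each well above background on all 8 arrays, ranged from 9.66 to 9.98 in NEKO mice and from 9.60 to 10.01 in controls. Single markers differed by -2.19 (Slc22a7) to 0.97 (Slc13a3), with 7 higher and 7 lower in NEKO mice. Of the 14, 2 (Slc13a3 and Slc22a8) had every NEKO mouse above every control, against 3.88% of all features. In 1 (Slc5a2) every NEKO mouse was below, against 5.39% of all features. Intercalated cell markers ranged from 2.80 to 4.62 in NEKO mice and from 5.20 to 5.63 in controls. All 6 had a negative difference, from -2.07 for Slc26a4 to -0.09 for Foxi1, against 56.2% of all features. In 2 of them (Slc26a4 and Atp6v1g3) every NEKO mouse was below every control, against 5.39% of all features. The 6 thick ascending limb and 5 distal convoluted tubule markers also all had a negative difference, with medians of -0.25 and -0.57. Of 7 tubular injury markers 4 were higher and 1 (Clu) was lower at an unadjusted p of 0.05 with limma. Over all features these shares were 7.37% and 10.6%. Clu differed by -0.85, with every NEKO mouse below every control, and Havcr1 also had a negative difference, at -0.42. All 8 adipocyte markers that were measured had a positive difference, against 43.8% of all features, with a median of 1.33. Their summed levels were 5.27 to 6.76 in NEKO mice and 4.59 to 6.41 in controls. None of these markers reached an unadjusted p of 0.05 with limma. The part of these cells in the values below was not tested. In bulk RNA of a whole organ, fewer cells of a type and less RNA per cell cannot be told apart.

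Promoter sequence was examined for letters that PPAR-alpha and Nrf2 are known to bind, because the genotype activates Nrf2 and the enzymes are known PPAR-alpha targets. The windows were the 250 bases before the first listed RefSeq start of each gene on GRCm38.p6, searched on both strands. All 8 members had such a window, and other starts of a gene were not searched. The PPAR direct repeat AGGTCANAGGTCA was found in none of the 8, against 10 of 27025 windows overall (0.037%). An exact match is so rare that its absence from 8 windows tells nothing particular about these genes. Its single unit AGGTCA, which the repeat contains, was found in 3 members, Cpt1a, Acadm and Acadvl, against 13.8% of all windows. The antioxidant response element core TGACNNNGC was found in 1 member, Ehhadh, against 10.1% of all windows. A match describes letters in this window and no site, and the absence of one says nothing about regions outside it. Below are 3 windows, shown because they hold a match and belong to the genes with the widest separation between groups or sexes, written 5′ to 3′ on the strand of the gene with the matched letters in capitals. The first is Acadm (chr3:153944644-153944893, minus strand), with the single unit read on the opposite strand at bases 249 to 244 before the start. The others are Acadvl (chr11:70015429-70015678, minus strand), with the unit at bases 87 to 82, and Ehhadh (chr16:21787835-21788084, minus strand), with the antioxidant core at bases 165 to 157.
Acadm: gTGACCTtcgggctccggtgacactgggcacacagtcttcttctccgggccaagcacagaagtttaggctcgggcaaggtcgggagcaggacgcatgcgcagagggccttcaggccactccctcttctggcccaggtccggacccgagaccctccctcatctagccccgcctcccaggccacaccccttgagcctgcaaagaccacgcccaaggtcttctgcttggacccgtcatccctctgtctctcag
Acadvl: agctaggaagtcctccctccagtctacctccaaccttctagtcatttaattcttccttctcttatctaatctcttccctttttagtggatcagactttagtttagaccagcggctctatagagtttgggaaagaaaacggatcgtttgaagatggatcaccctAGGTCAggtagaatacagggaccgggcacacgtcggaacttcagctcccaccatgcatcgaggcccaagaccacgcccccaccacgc
Ehhadh: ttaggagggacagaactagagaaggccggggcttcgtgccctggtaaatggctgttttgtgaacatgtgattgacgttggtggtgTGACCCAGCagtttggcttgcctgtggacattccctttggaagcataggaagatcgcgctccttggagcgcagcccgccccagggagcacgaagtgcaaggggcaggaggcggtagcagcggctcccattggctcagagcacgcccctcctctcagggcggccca

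None of the 8 genes passed the test between NEKO and control kidneys. Their differences ran from -0.22 for Ehhadh and Acadm to 0.13 for Ppara, with adjusted p between 0.32 and 0.94 in limma with sex as a term, and none reached an unadjusted p of 0.05. Over all 19593 genes and unnamed transcripts tested, 0.225% were called at an adjusted p of 0.05 and 18% reached the unadjusted level. The median difference of the 8 genes was -0.08, against -0.03 over all features. The 95% intervals of the 8 differences, taken as ratios of NEKO to control, lay between 0.548 and 1.45, and 6 of the 8 intervals stayed within 1.5-fold in both directions. With 4 mice against 4, an exact two-sided permutation test, which takes no account of sex, cannot go below p = 0.0286. The p-values of limma set each difference against the variation between these mice, with information on variance shared over all features.

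**Figure D1:**
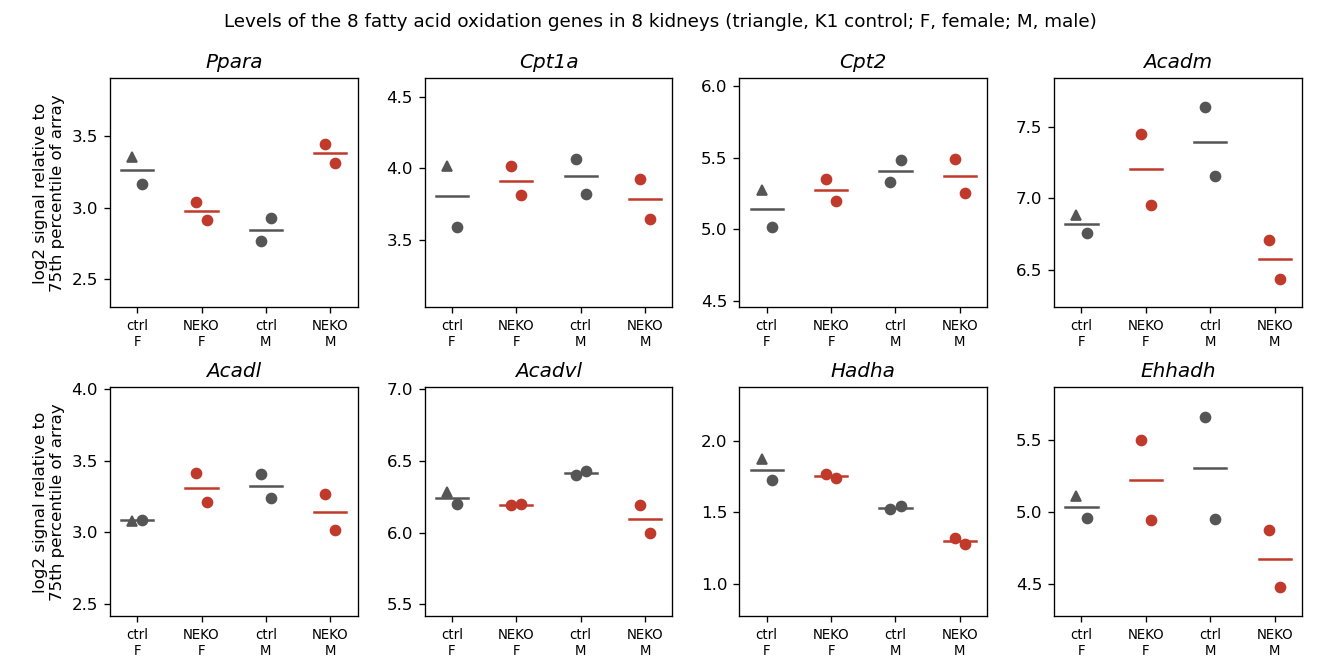
Level of each of the 8 genes in every kidney, in log2 units above the 75th percentile of its array, by sex and genotype (grey, control; red, NEKO; triangle, the K1 female; line, mean of 2 mice). The vertical axes span equal lengths in log2 units but start at different levels, and Acadm and Ppara show the NEKO and control mice in opposite order in the 2 sexes.

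Ppara, the receptor at the head of the programme, was measured at 3.04 and 2.92 in NEKO females 2 and 3 and at 3.44 and 3.31 in NEKO males 5 and 6. Control females 1 and 8 had 3.35 and 3.17, and control males 4 and 7 had 2.76 and 2.93. The groups overlapped over most of their range, with NEKO females below control females and NEKO males above control males. The means were 3.18 ± 0.24 (SD, n = 4) and 3.05 ± 0.26 (SD, n = 4), a difference of 0.13 (SE 0.17, adjusted p = 0.72 with limma).

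Cpt1a and Cpt2 encode the carnitine palmitoyltransferases of the outer and inner mitochondrial membranes, the entry step of long-chain acyl groups and its reversal inside. Cpt1a read 4.02 and 3.81 in NEKO females and 3.93 and 3.64 in NEKO males (mice 5 and 6), against 4.02 and 3.59 in control females and 4.07 and 3.82 in control males. The 2 groups covered nearly the same interval. The difference was -0.02 (SE 0.14), with a 95% interval from -0.35 to 0.30, and the second Cpt1a probe gave -0.03 (SE 0.13).

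Cpt2 read 5.35 and 5.20 in NEKO females and 5.49 and 5.25 in NEKO males, against 5.28 and 5.02 in control females and 5.33 and 5.48 in control males. The highest and the second highest value came from different groups and the lowest was a control female. The difference was 0.05 (SE 0.10), with a 95% interval from -0.20 to 0.29.

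Acadvl, Acadl and Acadm encode the very long-, long- and medium-chain acyl-CoA dehydrogenases, which open each round of mitochondrial oxidation. Acadvl was the one member whose groups did not overlap. It read 6.19 and 6.20 in NEKO females and 6.20 and 6.00 in NEKO males, against 6.28 and 6.20 in control females and 6.40 and 6.43 in control males. Every NEKO mouse lay below every control, but the gap between the highest NEKO mouse and the lowest control was 0.0049, whereas the whole range was 0.437. The difference was -0.18 (SE 0.09, adjusted p = 0.32 with limma), and the exact permutation test gave p = 0.0286, the smallest that it can give. This is 1 of 8 members, whereas 5.39% of all features had every NEKO mouse below every control and 9.27% were separated in either direction. The separation was lost under normexp background correction, quantile normalization and scaling to the median.

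Acadl read 3.41 and 3.21 in NEKO females and 3.27 and 3.01 in NEKO males, against 3.08 and 3.09 in control females and 3.41 and 3.24 in control males. The highest NEKO and the highest control value were nearly equal, and the lowest value was a NEKO male. The difference was 0.02 (SE 0.12), with a 95% interval from -0.26 to 0.30.

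Acadm had one of the widest spreads among the 8 genes. It read 7.45 and 6.96 in NEKO females and 6.71 and 6.44 in NEKO males, against 6.88 and 6.76 in control females and 7.64 and 7.16 in control males. Both NEKO females were above both control females and both NEKO males were below both control males, so the groups overlapped when the sexes were pooled. The means were 6.89 ± 0.43 (SD, n = 4) and 7.11 ± 0.39 (SD, n = 4), a difference of -0.22 (SE 0.27, adjusted p = 0.69 with limma).

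Hadha encodes the alpha subunit of the trifunctional protein, which carries out the hydration and the second dehydrogenation of long chains in mitochondria. It read 1.77 and 1.74 in NEKO females and 1.32 and 1.27 in NEKO males, against 1.87 and 1.72 in control females and 1.52 and 1.54 in control males. All 4 females were above all 4 males, and the genotypes overlapped. The difference between genotypes was -0.14 (SE 0.08, adjusted p = 0.37 with limma). Its partner subunit Hadhb, named after its values were seen, differed by -0.22 (SE 0.09, adjusted p = 0.28 with limma).

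Ehhadh encodes the peroxisomal bifunctional enzyme, which performs the corresponding steps in peroxisomes. It read 5.50 and 4.94 in NEKO females and 4.87 and 4.48 in NEKO males, against 5.11 and 4.96 in control females and 5.67 and 4.95 in control males. The 2 NEKO males held the lowest values, and NEKO female 2 and control male 4 stood above the rest. The difference was -0.22 (SE 0.25, adjusted p = 0.65 with limma). Without NEKO female 2, Ehhadh also had every NEKO mouse below every control, but narrowly, at 4.94 in NEKO female 3 and 4.95 in control male 7. The share of all features separated without this mouse was not counted.

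**Figure D2:**
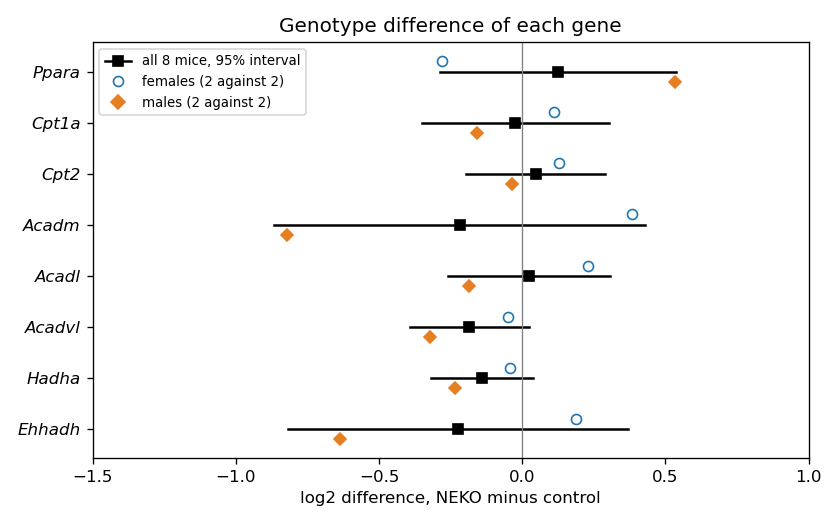
Difference between NEKO and control kidneys for each of the 8 genes in log2 units (black square, all 8 mice with its 95% interval; blue circle, 2 females against 2; orange diamond, 2 males against 2). All 8 intervals cross 0, and the male value lies below the female value in 7 genes.

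The genotype difference was then compared between females and males. NEKO females were higher than control females on average in 5 of the 8 genes, and NEKO males were lower than control males in 7. The median difference was 0.12 in females and -0.21 in males, against -0.03 in each sex over all features. Ppara was the one gene with a positive difference in males, at 0.53 against -0.28 in females, and Acadvl and Hadha were the others with a negative difference in females, at -0.05 and -0.04.

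Whether the genotype difference itself differed between the sexes was tested as an interaction term in limma. No member passed at an adjusted p of 0.05, against 0.0153% of all features, and 2 of 8 reached an unadjusted p of 0.05, against 10.5% of all features. The male difference exceeded the female one for Ppara by 0.81 (SE 0.18), with a 95% interval from 0.38 to 1.24 and an adjusted p of 0.16 in limma. For Acadm the male difference minus the female one was -1.21 (SE 0.33), with a 95% interval from -2.00 to -0.41 and an adjusted p of 0.25 in limma. In both genes NEKO and control mice did not overlap within either sex and stood in opposite order, as was true of 5.97% of all features that could be examined. The difference between the sexes was -0.82 for Ehhadh (adjusted p = 0.58 with limma) and -0.41 for Acadl (adjusted p = 0.54 with limma). A negative difference was found in 7 of 8 genes (87.5%), in 79 of 117 other genes of the pathway (67.5%) and in 49.7% of all features.

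Sex differences within the controls are the base of these values. Control males were above control females by 0.58 for Acadm, 0.27 for Ehhadh and 0.24 for Acadl, whereas NEKO males were below NEKO females by 0.63, 0.55 and 0.17 (differences -0.63, -0.55 and -0.17). For Ppara the order was turned, at -0.41 in controls and 0.40 in NEKO mice. Each of these values rests on 2 mice of each sex. Control female 1 carried no Cre, whereas the other controls did. The control values, and the sex differences built on them, therefore mix sex with slide and in part with Cre. Proximal tubule markers summed to 9.97 in NEKO males and 9.98 in control males, and to 9.725 and 9.656 in females. The brightest markers weigh most in these sums. Singly, these markers differed in males from -5.93 (Slc22a7, 1.56 in females) to 1.39 (Slc13a3, 0.54 in females). Intercalated cell markers summed to 3.29 in NEKO males and 5.21 in control males. Distal convoluted tubule markers summed to 3.41 and 4.18 and thick ascending limb markers to 7.87 and 8.39. In females the corresponding sums of NEKO and control mice were 4.58 and 5.49 for intercalated cells, 4.37 and 4.53 for the distal convoluted tubule and 8.37 and 8.44 for the thick ascending limb. The median difference of macrophage markers was -0.22 in females and 0.59 in males, and that of the Nrf2 targets was 0.67 and 1.55. The part of these cells and genes in the sex difference was not tested.

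**Figure D3:**
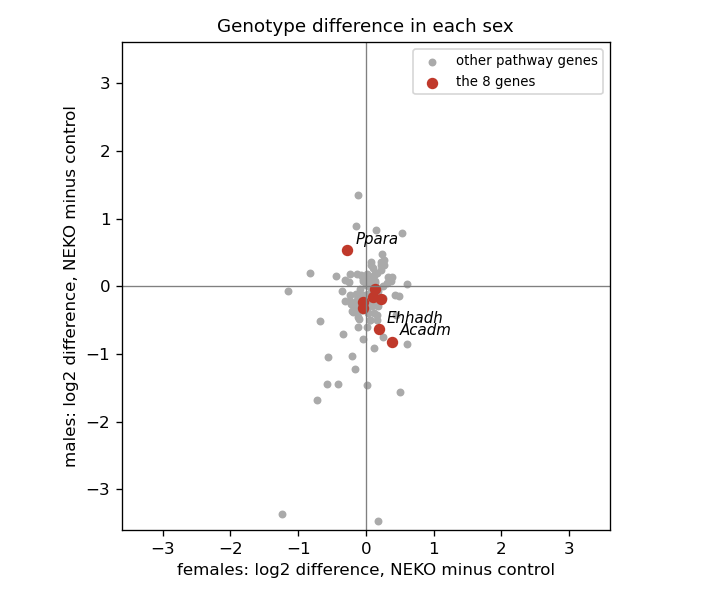
Difference between NEKO and control kidneys in females (horizontal) and males (vertical), in log2 units, for the 8 genes (red) and 117 other genes of the pathway lists (grey). Most of the 8 genes lie below 0 in males, Acadm and Ehhadh are to the right and below 0, and Ppara is to the left and above 0.

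The 8 genes moved together to an unequal degree across the 8 arrays, in which sex, slide and genotype are shared sources of variation. Acadm and Ehhadh had a Pearson r of 0.936 and Acadm and Acadl 0.87, whereas Ppara and Acadm had -0.777. Averaged over the 8 genes, each centred on its own mean, NEKO mice read 0.17, -0.05, -0.02 and -0.25 (females 2 and 3, males 5 and 6) and controls read 0.06, -0.11, 0.18 and 0.02 (females 1 and 8, males 4 and 7). The highest mean belonged to a control male and the lowest to NEKO male 6. Among 13519 other genes, those most like this mean profile over 8 arrays were Cyp4f14, a fatty acid omega-hydroxylase (r = 0.968), Tceanc (r = 0.952), Spin2c (r = 0.944), Hif3a, a hypoxia-inducible factor subunit (r = 0.932), and Nhlrc2 (r = 0.926). The genes most like Ppara were Adamdec1, Plpp3 and Gpsm3, with r from 0.950 to 0.974. Those most like Acadm were Ccdc89, Cacnb1 and Ttc30a1 (r from 0.955 to 0.967), and those most like Ehhadh were Spin2c, Cacnb1 and Hif3a (r from 0.939 to 0.969). Hibch, which acts in valine breakdown, Smim8 and Ahcy were the most like Cpt1a (r from 0.973 to 0.981), and Txnl4b, Por, the electron donor of cytochrome P450 enzymes, and Naprt the most like Cpt2 (r from 0.931 to 0.944). For Acadl they were Pop1, Masp2 and Cep44 (r from 0.930 to 0.952), for Acadvl Fbxo5 and Gtf3c3 (r of 0.965 and 0.962), and for Hadha P2ry2, Slc1a5 and Pgm5 (r from 0.982 to 0.990). With 8 arrays and this many genes these values describe likeness only.

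The rest of the pathway was taken from 7 lists of 123 genes, of which 117 were measured and Acsl6, Mmut, Abcd2, Ppard, Ucp3 and Fgf21 had no probe above the filter. None was called at an adjusted p of 0.05 with limma. At the unadjusted level 4 were higher (3.42%) and 12 lower (10.3%), against 7.37% and 10.6% of all features, and the median difference was -0.10. Groups did not overlap in 1 gene that was above and 5 that were below, against 3.88% and 5.39% of all features.

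In uptake and activation, 16 genes were measured, with a median of -0.10. Fabp3, a cytosolic fatty acid binding protein, read 4.74, 4.85, 4.14 and 4.12 in NEKO mice 2, 3, 5 and 6 and 5.56, 5.15, 4.96 and 5.40 in controls 1, 8, 4 and 7. All NEKO mice were below all controls and the males were lower than the females among them, with a difference of -0.80 (SE 0.16, adjusted p = 0.092 with limma). Acbd5, a peroxisomal acyl-CoA binding protein, was the one gene of the 7 lists with every NEKO mouse above every control, with means of 1.43 ± 0.11 and 1.14 ± 0.09 (SD, n = 4 each) and a difference of 0.29 (SE 0.06, adjusted p = 0.11 with limma). Acsm3, a medium-chain acyl-CoA synthetase named after its values were seen, read -0.12 and -0.83 in NEKO females and -0.87 and -0.43 in control females, but 3.14 and 1.43 in NEKO males and 6.14 and 5.35 in control males. NEKO males thus stood between the females and the control males, and the difference between the sexes was -3.64 (SE 0.84, adjusted p = 0.18 with limma).

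In the carnitine shuttle, all 12 genes were measured, with a median of -0.13. Cpt1b, the muscle form of the outer-membrane enzyme, and Acacb, which makes the malonyl-CoA that inhibits it, were the 2 genes at the unadjusted level and were named after their values were seen. Acacb read 1.01, 1.15, -0.25 and -0.32 in NEKO mice 2, 3, 5 and 6, against 1.56, 1.43, 1.13 and 1.19 in controls 1, 8, 4 and 7, a difference of -0.93 (SE 0.21, adjusted p = 0.11 with limma). The 2 NEKO males were the lowest of the 8 mice, and the groups overlapped at NEKO female 3 and control male 4. Cpt1b differed by 0.01 in females and -1.46 in males, with a difference of -1.47 between the sexes (SE 0.25, adjusted p = 0.13 with limma).

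Of the other mitochondrial enzymes, 22 were measured, with a median of -0.07, none above and none below in every mouse. The peroxisomal list of 21 genes had a median of 0.02. In it Acot3, a peroxisomal acyl-CoA thioesterase named after its values were seen, differed by 0.67 (SE 0.19, adjusted p = 0.16 with limma).

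Ketogenesis and ketone use had the lowest median of the 7 lists, at -0.19 over 10 genes, with -0.11 in females and -0.51 in males. A negative difference was found in 9 of 10 genes, against 56.2% of all features. Slc16a7, a monocarboxylate transporter, read 2.18, 2.34, 1.10 and 0.93 in NEKO mice 2, 3, 5 and 6, against 2.89, 2.79, 2.36 and 2.56 in controls 1, 8, 4 and 7. All NEKO mice were below all controls, narrowly in the case of NEKO female 3 and control male 4, with a difference of -1.01 (SE 0.18, adjusted p = 0.078 with limma). Slc16a1, another transporter of the family, which carries ketone bodies and lactate, differed by -0.52 (SE 0.16, adjusted p = 0.19 with limma), also without overlap.

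Bdh1, which interconverts the 2 main ketone bodies, differed by -0.62 (SE 0.20, adjusted p = 0.20 with limma), and Slc16a6, a transporter linked to ketone export, by 0.49 (SE 0.18, adjusted p = 0.23 with limma). Both were named after their values were seen.

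**Figure D4:**
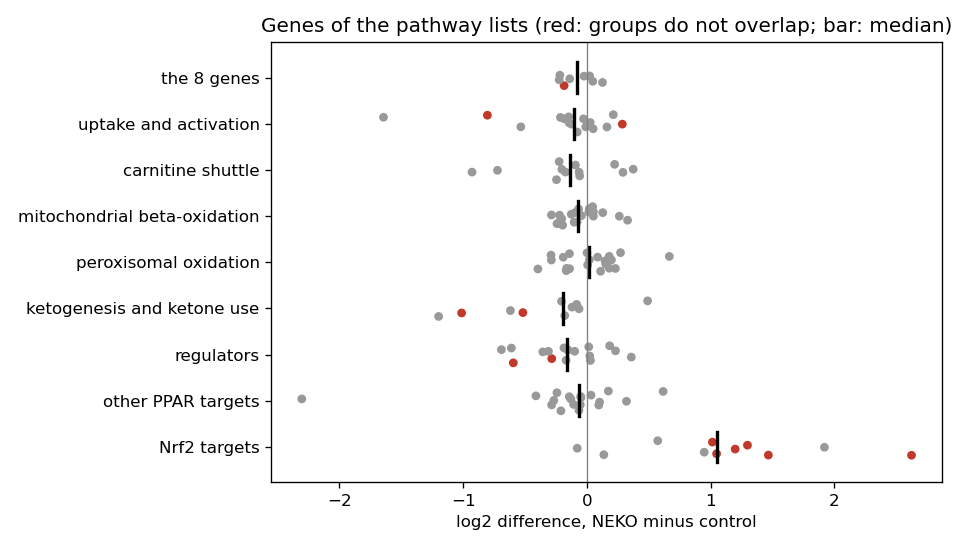
Difference between NEKO and control kidneys in log2 units for each measured gene of the 8 members, the 7 other lists and the Nrf2 targets (red, groups without overlap; vertical bar, median). The medians of the 8 genes and of the 7 lists lie between -0.19 and 0.02, whereas that of the Nrf2 targets is 1.05.

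Among 17 regulators the median was -0.16. Ppargc1a, the coactivator that drives mitochondrial biogenesis and works with PPAR-alpha, read 3.78, 3.42, 3.58 and 3.44 in NEKO mice 2, 3, 5 and 6, against 4.54, 4.02, 3.87 and 4.17 in controls 1, 8, 4 and 7. All NEKO mice were below all controls, in females and in males, with a difference of -0.60 (SE 0.15, adjusted p = 0.14 with limma). Esrra, the estrogen-related receptor that Ppargc1a coactivates, had means of 4.07 ± 0.09 and 4.35 ± 0.11 (SD, n = 4 each), a difference of -0.28 without overlap (SE 0.08, adjusted p = 0.17 with limma). Pparg, the receptor of fat cells and named after its values were seen, differed by 0.36 (SE 0.12, adjusted p = 0.20 with limma).

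The 19 other PPAR targets had a median of -0.06, and none had groups without overlap. Named after their values were seen, Cyp4a10 and Cyp4a14, omega-hydroxylases that respond strongly to PPAR-alpha in many tissues, differed by 0.10 (SE 0.14, adjusted p = 0.72 with limma) and 0.62 (SE 0.43, adjusted p = 0.47 with limma). Cyp4a12a, a related enzyme known to be higher in male mice, read -0.93, -2.04, -0.33 and -1.93 in NEKO mice 2, 3, 5 and 6 and 0.73, -1.22, 3.97 and 0.51 in controls 1, 8, 4 and 7. The highest was control male 4 and the groups overlapped, with a difference of -2.30 (SE 0.93, adjusted p = 0.26 with limma).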

How the data were processed

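The deposited scanner files hold an intensity for each spot, read by the authors with Agilent Feature Extraction 10.7.3.1, in which the processed signal is background-subtracted and not normalized between arrays. The authors also deposited a matrix of log2 values centred on each probe, and 100% of its differences between arrays lay within 0.01 of those recomputed here, which settles its scale and direction. How the authors normalized the arrays is not given in the sources used here.

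Outlier spots (73 to 172 of 43379 on each array) were left out, spots of a probe were averaged, and the log2 processed signal was scaled by subtracting the 75th percentile over non-control probes, array by array. The filter kept 26026 of 41174 probes, those detected on at least 4 of 8 arrays and with values on at least 6. Accessions named 26690 probes through RefSeq GRCm38.p6, the array annotation being on another build. Where several probes of a gene were kept, the one with the highest mean stood for it. NEKO and control mice were compared in limma 3.58.1 (R 4.3.3; lmFit and eBayes, genotype and sex, Benjamini-Hochberg over 19593 features), with the interaction in a second model and exact permutation for single genes. The procedure was tested on simulated data.

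The named genes are the 8 members, the pathway genes whose groups do not overlap (up to 4 per direction and list), Keap1, Nqo1 and Gclc, and the genes most alike in profile; others are said to be named after their values were seen, and some genes that the rule or the lists include are not reported here. The members and the lists were chosen with earlier results of these data known. Alternatives were normexp background correction (offset 50, on the median signal), quantile normalization, scaling to the median, 2 filters, the mean of the kept probes, each other kept probe, no sex term, slide as a block, averaging over the sexes, array weights, eBayes with trend and robust, the deposited matrix, the comparison named in the methods (adjusted or not), each sex alone, and leaving out each mouse.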

Additional observations from a re-analysis of the deposited data

Results flagged for a closer look

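In 2 of the 8 genes every NEKO mouse lay on one side of the controls in females and on the other in males. The male difference minus the female difference was 0.81 for Ppara (adjusted p of the interaction 0.16 with limma) and -1.21 for Acadm (adjusted p 0.25 with limma), so neither passed the test, and 1165 of 19514 features showed such an order.

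Of 56 groups of 4 mice examined, a single mouse stood far from the other 3 in the 4 cases given here, where chance gives about 1 in 20 groups. Acadvl in NEKO male 6 was below the other NEKO mice by a gap of 0.975 of the range of the group. Nqo1 in control male 4 was below the other controls by 0.91 of the range. Slc16a6 in NEKO male 5 was below the other NEKO mice by 0.882 of the range, and Pparg in control female 1, the mouse without Cre, was below the other controls by 0.971 of the range.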

How the results depend on the processing

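No member was called under 15 of 16 alternatives or without any 1 mouse. Of these the slide block is the same model as the sex term, and the deposited matrix holds nearly the same differences between arrays, so neither is an independent check. The interaction called none under 9 alternatives. The comparison named in the methods, without adjustment, called 1 member (Acadvl) and 7 pathway genes, against 2212 of all 19593 features. Pathway genes called were 1 under normexp (Slc16a7), 4 averaged over the sexes (Fabp3, Slc16a7, Acacb and Cpt1b) and 2 in males alone (Slc16a7 and Acacb). Members separated were 0 under normexp, quantile normalization and scaling to the median, and 1 to 2 without 1 mouse, with 2 (Acadvl and Ehhadh) without NEKO female 2. The share of all features separated was not counted in these settings. The median of the members was 0.12 in females alone and ranged from -0.16 to 0.01 without 1 mouse.

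Some differences turned sign. Under normexp Cpt2 was -0.00272 and Acadl -0.00912, and Cpt1a was 0.00566 under quantile normalization and 0.011 with array weights. Cyp4a10 was -0.062 as the mean of its probes. In females alone Ppara was -0.28, Cpt1a 0.11, Acadm 0.38, Ehhadh 0.19, Cyp4a14 -0.11, Cpt1b 0.014 and Acsm3 0.17, and in males alone Cpt2 was -0.035 and Acadl -0.18. Without 1 mouse, Cpt1a ranged from -0.14 to 0.060, Cpt2 from -0.021 to 0.11, Acadl from -0.059 to 0.11, Ehhadh from -0.42 to 0.00090 and Cyp4a10 from -0.0074 to 0.18. Others kept their sign without 1 mouse but moved by over 1.5 times. Ppara ranged from 0.01 to 0.24, Acadm from -0.44 to -0.0024 and Acadvl from -0.23 to -0.12. Cyp4a14 ranged from 0.22 to 0.88, Acsm3 from -2.1 to -0.94 and Cyp4a12a from -2.9 to -1.4. Of these, Ppara, Acadm and Cyp4a14 were smallest without control male 4. The cause was not tested.

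The paper used littermates as controls, but the labels do not say which mice shared a litter, so no paired analysis was made. Over all features 44 were called, 182 under normexp, 513 averaged over the sexes, 233 in males alone, and 17 to 41 without 1 mouse. The number of arrays limits the precision of every value given here, and the 95% intervals were widest for Acadm and Ehhadh among the members.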
